A study of Mus musculus with 21 samples.

Results

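The comparison described here is TTR-1186 at 2 µM against PBS, which uses 6 of the 21 libraries of the study, 3 per group, chosen by the agent and dose in the labels, and all 9657 genes in the files. The cells were wild-type (WT) primary mouse hepatocytes, liver cells taken from the animal and kept in culture. They received PBS, the vehicle, or an RNAi agent directed against Ttr, and RNA was taken on Day 1. The labels name 3 agents (TTR-1236, Reference 4 and TTR-1186), each given at 0.2 µM and 2 µM, and give neither the strain, age or number of animals nor any design or sequence of TTR-1186. Expression was measured with QuantSeq, a 3′ mRNA-Seq method that counts reads near the ends of polyadenylated transcripts.

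RNA interference uses a short guide RNA, loaded into an Argonaute protein such as Ago2, to cut or repress transcripts that pair with it. Ttr encodes transthyretin, a protein the liver secretes, which carries thyroxine and the retinol-binding protein Rbp4 in blood. Hepatocytes are a common target of RNAi agents because they take up conjugated oligonucleotides through receptors such as the asialoglycoprotein receptor.

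Levels are in CPM, read counts that the authors divided by the total of their library and multiplied by 1000000. Log2 fold changes are on the log2(CPM + 1) scale, given with their standard error, and were tested with limma over all 21 libraries. The words rose and fell are kept for genes with a p under 0.05 after Benjamini-Hochberg adjustment over all genes. Nothing in the labels tells whether the libraries of a group stem from different animals or wells, so that the spread behind each p-value, pooled over the 7 groups of the fit, is one between libraries and may be technical. The 3 treated libraries held 35065348, 22296414 and 26990803 reads and the PBS libraries 14324315, 19109736 and 26340870. A sample that had fewer hepatocytes and one with less of an RNA per hepatocyte cannot be told apart in these data.

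In each group 1 library stood apart. The root mean square difference in log2(CPM + 1) over all genes was 0.419 between replicates 1 and 3 of TTR-1186 2 µM, but 0.808 and 0.839 between each of these and replicate 2. Within PBS, replicate 3 differed from replicates 1 and 2 by 0.858 and 0.775, and replicates 1 and 2 differed from each other by 0.650. Treated and PBS libraries differed by 0.525 to 1.03, so that some were closer across the groups than any PBS libraries were to each other. Both libraries were low in mitochondrial ribosomal RNA, which took 0.622% of reads in TTR-1186 2 µM replicate 2 against 1.95% and 2.21% in its group, and 0.797% in PBS replicate 3 against 3.26% and 2.70%. Results below are therefore given with and without TTR-1186 2 µM replicate 2, and the lists also without both libraries.

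**Figure D1:**
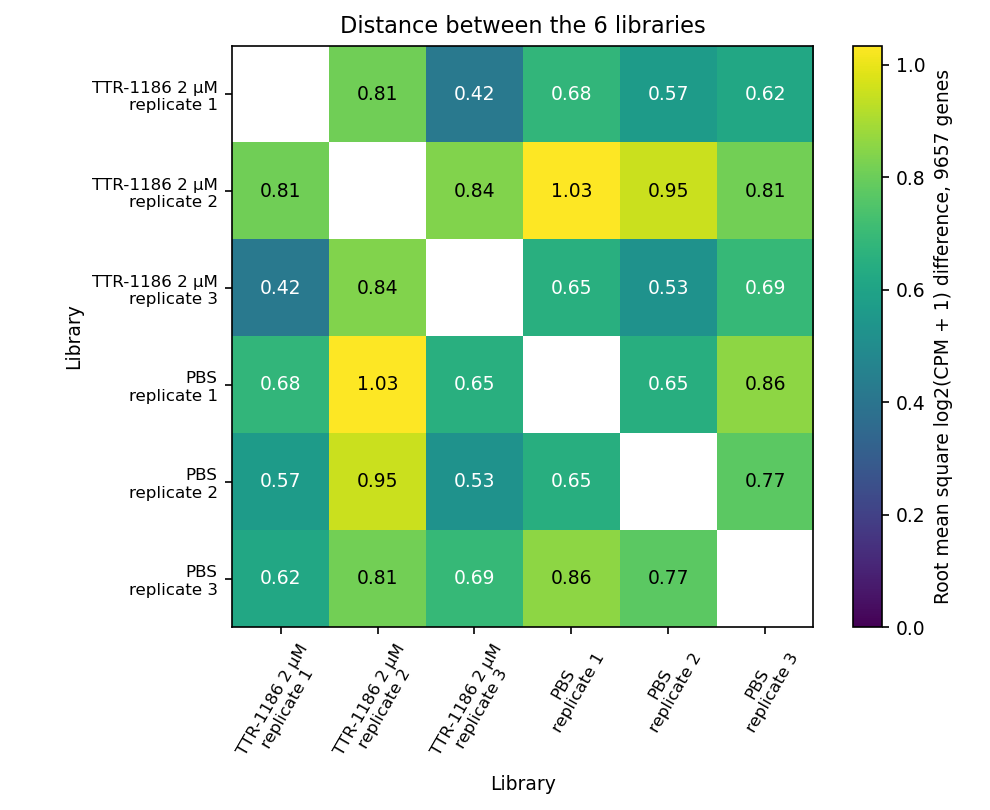
Root mean square difference in log2(CPM + 1) over 9657 genes for each pair of the 6 libraries, with libraries on both axes and the value in each cell. Replicates 1 and 3 of TTR-1186 2 µM are the closest pair at 0.42, and the farthest pair is TTR-1186 2 µM replicate 2 with PBS replicate 1 at 1.03.

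The sequences shown here come from the mitochondrial genome and from 1 promoter. Mitochondrial DNA is transcribed from both strands into long RNAs, from which tRNAs are cut at both ends. The genes for the tRNAs of alanine, asparagine, cysteine and tyrosine lie side by side on the minus strand of chromosome M, and are shown because the last of them rose and the 2 before it were measured next to it. They are given 5′ to 3′ from GENCODE transcripts of GRCm38, the assembly of mm10, with the anticodon in capitals, found as T, the anticodon and a purine near the middle of the gene.
mt-Ta: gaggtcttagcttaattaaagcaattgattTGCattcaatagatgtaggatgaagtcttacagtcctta
mt-Tn: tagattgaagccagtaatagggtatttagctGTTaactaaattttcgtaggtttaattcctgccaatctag
mt-Tc: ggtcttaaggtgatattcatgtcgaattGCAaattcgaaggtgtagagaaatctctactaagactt
mt-Ty: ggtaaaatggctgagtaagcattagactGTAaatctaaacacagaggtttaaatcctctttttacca
Their positions on chromosome M are 5018 to 5086 for mt-Ta, 5089 to 5159 for mt-Tn, 5192 to 5257 for mt-Tc and 5260 to 5326 for mt-Ty.

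Igfbp1 encodes a binding protein for insulin-like growth factors whose transcription in liver is known to be repressed by insulin through FOXO factors. Its promoter is shown because it is the most strongly supported fall besides the targeted gene. The stretch is from RefSeq (GRCm38.p6), 250 bases before to 50 bases after the start, on the plus strand at chr11:7197537-7197836, and the capitals mark the letters CAAAACA, the core of the insulin response element.
Igfbp1: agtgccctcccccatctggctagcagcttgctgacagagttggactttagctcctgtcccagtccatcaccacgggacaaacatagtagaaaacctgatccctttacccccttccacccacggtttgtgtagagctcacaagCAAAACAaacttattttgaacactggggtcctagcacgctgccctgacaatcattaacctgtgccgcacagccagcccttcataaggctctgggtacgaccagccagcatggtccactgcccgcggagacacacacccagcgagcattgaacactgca
The match starts 108 bases before the start site. CAAAACA or its reverse complement TGTTTTG was present in 6.28% of the 32851 promoters of the same length, and in 5.31% of the 6917 measured genes matched to one by symbol. The promoters of Jak1, Ypel2 and Raver2 held 0 matches, which says only that these letters are not in those windows.

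Of 9657 genes, 5 passed the test against PBS (0.0518%), of which 4 fell (0.0414%) and 1 rose (0.0104%). At an unadjusted p under 0.05 there were 890 genes (9.22%). Ttr, Igfbp1, Jak1 and Ypel2 fell, and the mitochondrial tRNA gene mt-Ty rose. Without TTR-1186 2 µM replicate 2 the count was 4 (0.0414%), made up of Ttr, Igfbp1, Jak1 and Raver2, so that Ypel2 and mt-Ty passed only with that library and Raver2 only without it. The count was 37 without PBS replicate 3, 13 without TTR-1186 2 µM replicate 1, 2 without TTR-1186 2 µM replicate 3 and 1 without PBS replicate 1. DESeq2 on the recovered reads called 30 genes (13 higher, 17 lower), edgeR called 3, and a limma fit on the 6 libraries alone called 1.

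**Figure D2:**
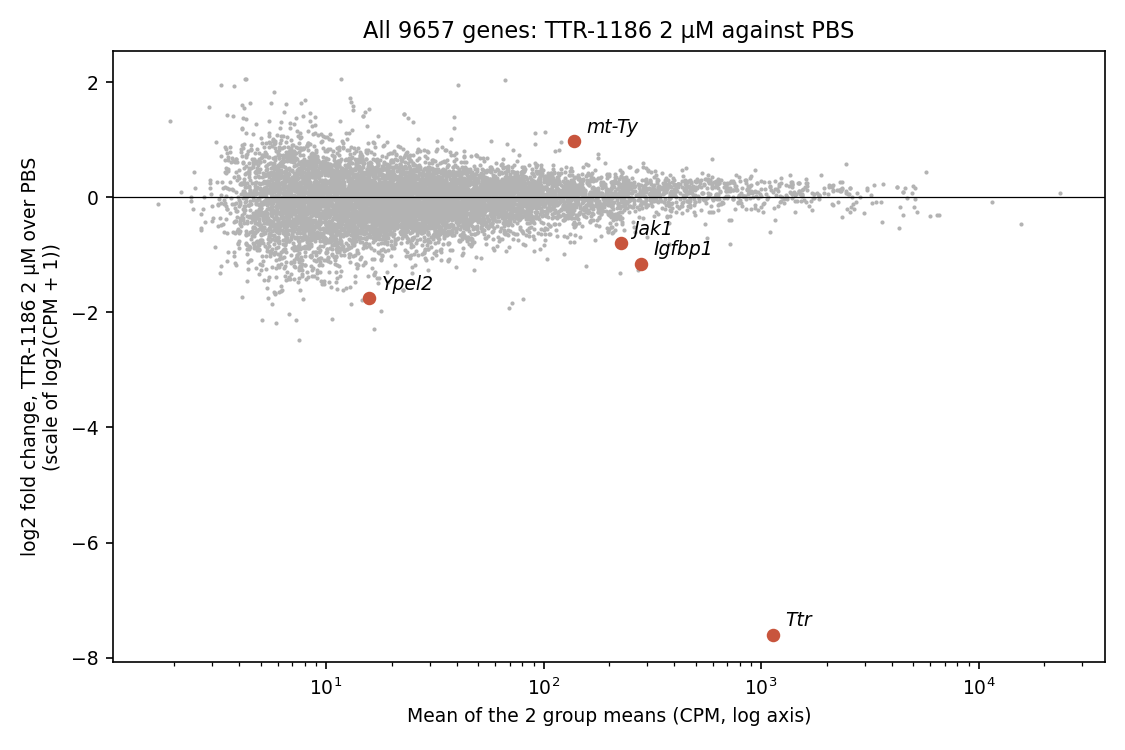
Log2 fold change of each of the 9657 genes (y axis, log2(CPM + 1) scale, TTR-1186 2 µM over PBS) against the mean of the 2 group means (x axis, CPM, log axis), with the 5 genes that passed the test in red. Ttr lies at -7.60, and the other 4 lie between -1.75 and 0.97.

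The targeted gene checks the labels. Ttr (ENSMUSG00000061808, mm10 chromosome 18, 20665280 to 20674321, plus strand) stood at 2272, 2168 and 2336 CPM in PBS and at 7.59, 15.1 and 10.4 CPM with TTR-1186 2 µM. The treated levels were 0.336%, 0.667% and 0.461% of the PBS mean. All 3 treated libraries lay far below all 3 PBS libraries, and replicate 2 kept the most Ttr of the 3, with an exact 95% Poisson interval of 13.5 to 16.8 CPM that covers counting error only and does not reach those of replicate 1 (6.70 to 8.55) or replicate 3 (9.23 to 11.7). Ttr fell by 7.60 on the log2 scale (SE 0.42, adjusted p = 1.03e-10), and by 7.83 without replicate 2.

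None of the other measured carriers and handlers of retinol and thyroid hormone passed the test. Rbp4, the retinol carrier that Ttr binds, was at 1110, 1084 and 933 CPM with TTR-1186 2 µM and 842, 875 and 905 CPM in PBS. The groups did not overlap, but the log2 difference of 0.25 ± 0.11 did not pass (adjusted p = 0.516). Serpina7, the thyroxine-binding globulin, had a log2 difference of 0.32 and was also above PBS in all treated libraries. Thrsp, a thyroid hormone-responsive gene of fat synthesis, was at 27.2, 7.76 and 20.7 CPM against 31.3, 41.1 and 22.2 CPM. Its difference was -0.85 ± 0.33 (adjusted p = 0.395) with replicate 2 lowest, and -0.36 without replicate 2. Of the 11 measured carriers and handlers other than Ttr, 4 were higher and 7 lower, with a median of -0.03 beside -0.01 over all genes. The median was 0.03 without replicate 2 and 0.11 without both libraries that stood apart.

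Igfbp1 (ENSMUSG00000020429, mm10 chromosome 11, 7197782 to 7202546, plus strand) was at 140, 194 and 188 CPM with TTR-1186 2 µM and at 430, 358 and 371 CPM in PBS. The lowest PBS library was well above the highest treated one. Igfbp1 fell by 1.15 (SE 0.18, adjusted p = 0.00539), and by 1.24 without replicate 2 (adjusted p = 0.00998). The call was lost without PBS replicate 1 (log2 difference -1.08, adjusted p = 0.0916), in the fit on the 6 libraries alone (0.221) and with a constant variance prior (0.0614).

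Other genes regulated by insulin or FOXO factors gave lower values without passing. Of the 17 measured, 12 were lower and 5 higher, Igfbp1 alone fell, and the median was -0.27. The median was -0.09 without replicate 2, -0.44 without PBS replicate 3 and -0.25 without both. Igfals, which forms the circulating complex of insulin-like growth factor, had 20.8, 7.04 and 16.6 CPM against 32.1, 18.3 and 17.9 CPM in PBS, with replicate 2 lowest and the groups overlapping (-0.66 ± 0.36, adjusted p = 0.580). Igfbp2, a related binding protein, was at a mean of 16.5 CPM against 10.9 CPM, a log2 difference of 0.63 in the other direction that also did not pass.

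Jak1 (ENSMUSG00000028530, mm10 chromosome 4, 101152367 to 101265282, minus strand), a tyrosine kinase that relays signals from interferon and interleukin-6 family receptors, was at 165, 172 and 156 CPM against 297, 310 and 256 CPM in PBS. The treated libraries lay within a narrow range below all PBS libraries. Jak1 fell by 0.80 (SE 0.13, adjusted p = 0.0120) and by 0.83 without replicate 2 (adjusted p = 0.0364). The call was lost without TTR-1186 2 µM replicate 3 (adjusted p = 0.0818), PBS replicate 1 (0.113) or PBS replicate 2 (0.0761), in the fit on the 6 libraries alone (0.627) and with a constant prior (0.0640).

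Raver2, which encodes an RNA-binding protein, lies tail to tail with Jak1 on the plus strand (101068983 to 101152370), and the 2 annotated genes share 4 bases. It was at 78.7, 114 and 61.4 CPM with TTR-1186 2 µM and 174, 143 and 173 CPM in PBS. Replicate 2 was the highest of the treated libraries, still below PBS. The log2 difference was -0.98 ± 0.22 (adjusted p = 0.132), and -1.21 without replicate 2 (adjusted p = 0.0451), the only fit of those leaving out 1 library in which it passed. Because a 3′ method reads the ends where these genes meet and the strand setting of the counting is not given in the sources used here, reads of Jak1 and Raver2 may not be fully separated.

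Of the 23 measured JAK-STAT genes, Jak1 included, 18 were lower and 5 higher, and Jak1 alone fell. The median was -0.17, or -0.08 without replicate 2, -0.28 without PBS replicate 3 and -0.23 without both. Ifngr1, a chain of the interferon-γ receptor, had 158, 222 and 173 CPM against 201, 244 and 242 CPM, with overlapping groups (-0.32 ± 0.16, adjusted p = 0.536). Apart from Jak1, the treated and PBS libraries overlapped for every measured member, among them the other kinases Jak2 (0.18) and Tyk2 (0.19) and the transcription factor Stat3 (-0.06).

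Ypel2, a member of the yippee-like family of small zinc-binding proteins, lies on chromosome 11 from 86936425 to 86993707 on the minus strand. It was at 10.4, 3.14 and 7.78 CPM with TTR-1186 2 µM and 30.4, 24.5 and 18.8 CPM in PBS. The groups did not overlap, and replicate 2 was the lowest. Ypel2 fell by 1.75 (SE 0.33, adjusted p = 0.0359), but without replicate 2 the difference was -1.33 and did not pass (adjusted p = 0.346). It was also lost without TTR-1186 2 µM replicate 3 (0.0788), PBS replicate 1 (0.210) or PBS replicate 2 (0.127), and in the fit on the 6 libraries alone (0.922), with a constant prior (0.0614), with the replicate number as a block (0.0813) and in edgeR with TMM factors (0.0612). Its relative Ypel3 had a log2 difference of -0.60 ± 0.23 (adjusted p = 0.394), while Ypel1 (0.02) and Ypel5 (-0.10) were near 0.

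The gene that rose, mt-Ty, encodes the mitochondrial tRNA for tyrosine. It was at 139, 226 and 188 CPM with TTR-1186 2 µM and 94.6, 103 and 79.3 CPM in PBS, with replicate 2 the highest and no overlap. It rose by 0.97 (SE 0.18, adjusted p = 0.0359), and without replicate 2 the difference was 0.81 (adjusted p = 0.371). It did not pass without TTR-1186 2 µM replicate 3 (0.0955), PBS replicate 1 (0.142) or PBS replicate 2 (0.0614), in the fit on the 6 libraries alone (0.922), with a constant prior (0.130), with the replicate number as a block (0.0813) or in edgeR with TMM factors (0.0555).

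Its neighbours on the same strand had like values. mt-Tc was at 106, 210 and 164 CPM against 74.1, 98.5 and 67.2 CPM, a log2 difference of 0.95 ± 0.20 (adjusted p = 0.101). mt-Tn was at 103, 132 and 124 CPM against 49.4, 83.5 and 58.6 CPM, a difference of 0.92 ± 0.18 (adjusted p = 0.0684). In both, every treated library was above every PBS library, and neither passed the threshold. The fourth gene of the row, mt-Ta, had overlapping groups and a difference of 0.46, as did the minus-strand gene mt-Tq at 0.29. The counts do not tell a mature tRNA from a longer RNA across the gene, nor, with the strand setting not given, a transcript of the opposite strand.

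**Figure D3:**
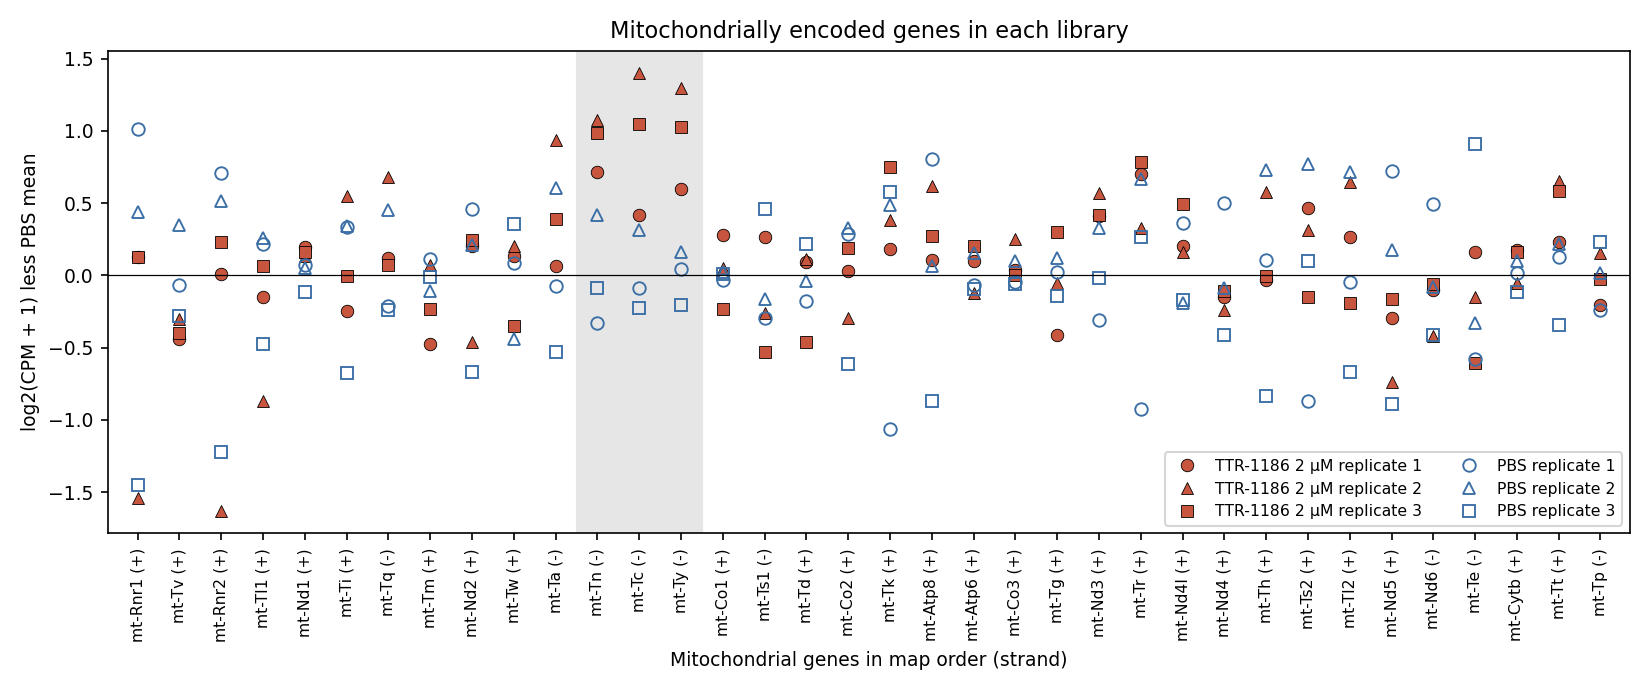
Mitochondrially encoded genes in map order with their strand (x axis) and log2(CPM + 1) in each library less the PBS mean of that gene (y axis), with TTR-1186 2 µM in filled red and PBS in open blue, and 1 symbol shape per replicate number. In the shaded genes mt-Tn, mt-Tc and mt-Ty all treated libraries are above all PBS libraries, while in mt-Rnr1 and mt-Rnr2 replicate 2 of TTR-1186 2 µM and replicate 3 of PBS are far below the rest.

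No other mitochondrial gene passed the test. Of the 21 measured mitochondrial tRNA genes, those 3 included, 12 were higher and 9 lower, with a median of 0.18 that became -0.02 without replicate 2. All treated libraries were above PBS in 4 of them, beside 5.77% of all genes, and below in 1, beside 5.85%. Besides mt-Tn, mt-Tc and mt-Ty, the 4 include mt-Tt for threonine (0.49 ± 0.38, adjusted p = 0.699), and the 1 below was mt-Tv for valine (-0.38). mt-Tt and mt-Tv are named after their values were seen. The 13 mitochondrial mRNAs had a median of 0.06, with 8 higher and 5 lower. In 2 of them, both for subunits of complex I, all treated libraries were above PBS, beside 5.77% of all genes. These were mt-Nd3 at 0.47 ± 0.17 (adjusted p = 0.360) and mt-Nd1 at 0.16. The rRNA gene mt-Rnr2 was at 15742, 5036 and 18323 CPM against 25585, 22289 and 6705 CPM in PBS, lowest in the library of each group that stood apart. Its log2 difference was -0.47 ± 0.57 with all libraries, 0.12 without replicate 2, -1.08 without PBS replicate 3 and -0.49 without both. The part of the mitochondrial rRNA level of a library in the tRNA values was not tested.

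**Figure D4:**
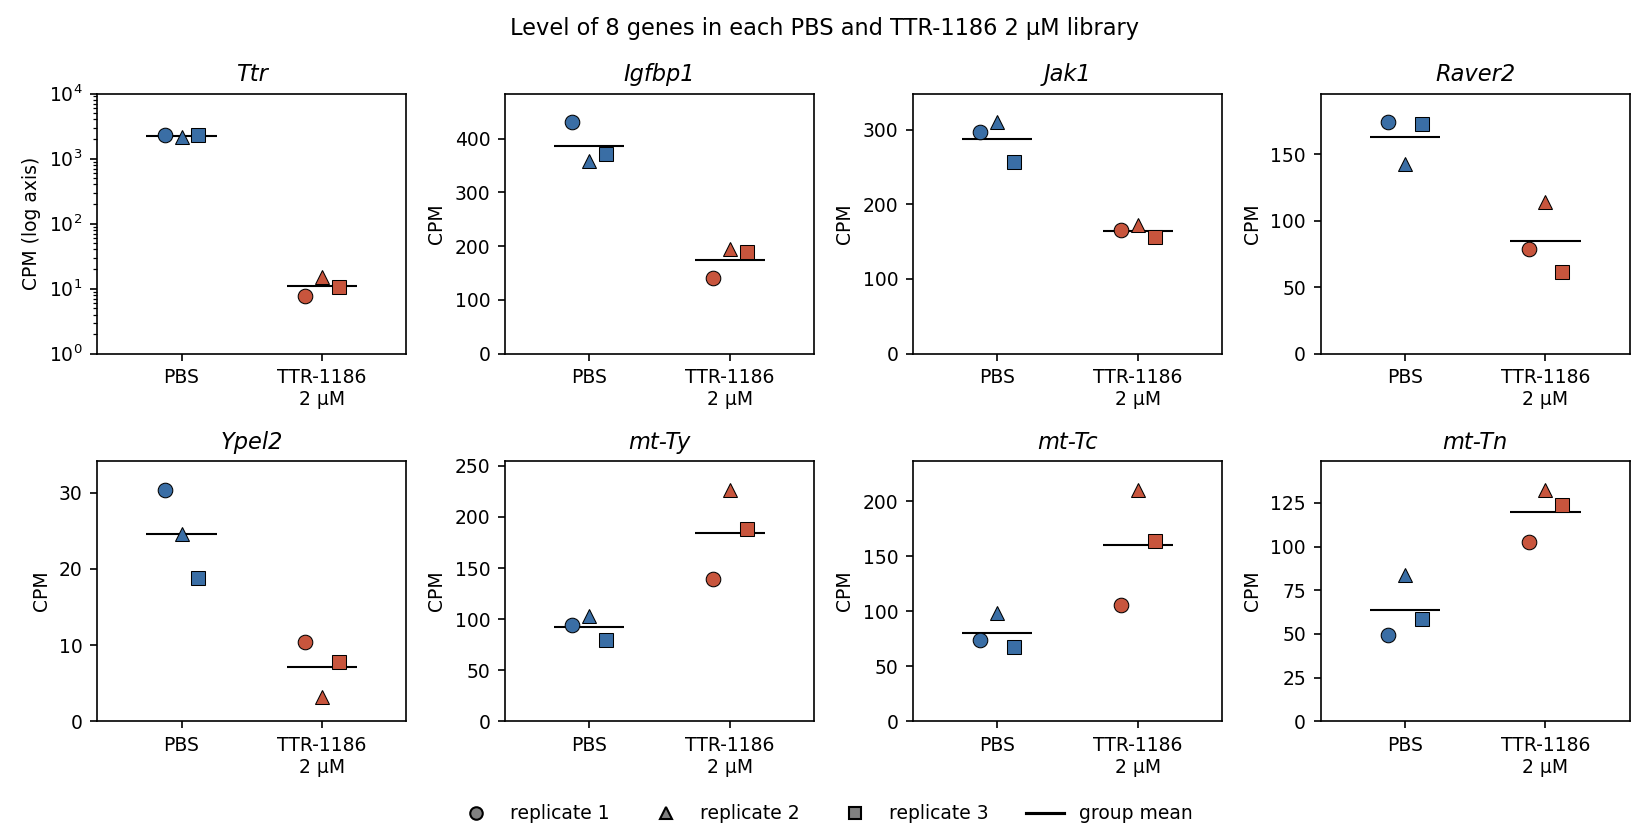
CPM (y axis, log scale for Ttr and linear from 0 for the others) of the 5 genes that passed the test, Raver2, mt-Tc and mt-Tn in the 3 PBS (blue) and 3 TTR-1186 2 µM (red) libraries, with shapes for replicate numbers and a line at the group mean. The groups do not overlap in any of the 8 panels, and replicate 2 is the lowest treated library for Ypel2 and the highest for Ttr, Igfbp1, Jak1, Raver2, mt-Ty, mt-Tc and mt-Tn.

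Counting the genes that passed, 557 genes were higher in all 3 treated libraries than in all 3 PBS libraries (5.77%) and 565 were lower (5.85%). The median length of the longest annotated transcript was 2167 bases in the first set and 4028 bases in the second, beside 3060 bases over all genes. Genes at least 2-fold lower in TTR-1186 2 µM replicate 2 than in the mean of its group's other libraries had a median of 3494 bases, and those at least 2-fold lower in PBS replicate 3 than in the mean of PBS replicates 1 and 2 had 3902 bases. The part of transcript length and of these libraries in the sets was not tested.

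Acta1, Acta2 and Actn1 were among the 10 higher genes with the smallest p. Acta1, skeletal muscle actin, was at 64.2, 57.1 and 41.1 CPM against 16.4, 23.4 and 29.9 CPM (1.20 ± 0.26, adjusted p = 0.102). Acta2, smooth muscle actin and a marker of activated stellate cells, was at 18.6, 24.3 and 16.5 CPM against 3.42, 11.5 and 3.34 CPM (1.73 ± 0.40, adjusted p = 0.132). Actn1, the actin cross-linker α-actinin, was at 670, 713 and 817 CPM against 459, 518 and 412 CPM (0.66 ± 0.16, adjusted p = 0.154). None of the 3 passed, and each stood above PBS in all treated libraries.

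Of 52 measured cytoskeleton and dedifferentiation genes, 38 were higher and 14 lower, with a median of 0.23, and 0.20 without replicate 2. All treated libraries were above PBS in 10 of them and below in 2, beside 5.77% and 5.85% of all genes. The focal adhesion gene Vcl was below PBS in every treated library (-0.58). The median was 0.15 without PBS replicate 3 and 0.12 without both libraries that stood apart. The list shares Acta2 with the 10 measured stellate cell and fibroblast markers, of which 6 were higher and 4 lower (median 0.45). Their summed level was 1150 to 1366 CPM with TTR-1186 2 µM and 1281 to 1387 CPM in PBS, most of it Fn1, and of the defining markers fixed for these cells only Dcn was measured, at 19.5, 25.3 and 14.5 CPM against 12.5, 13.7 and 6.57 CPM. The part of other cell types in the actin values was not tested.

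Other genes higher in all treated libraries had other roles. Rnu3a, the U3 small nucleolar RNA, was at 12.7, 22.3 and 23.7 CPM against 3.70, 5.44 and 2.58 CPM (2.06 ± 0.42, adjusted p = 0.0850). It is one of several near-identical U3 genes, so the copy is uncertain. Hfe, the hereditary haemochromatosis protein that regulates hepcidin, was at 23.8, 31.1 and 14.2 CPM against 6.98, 7.43 and 7.10 CPM (1.49 ± 0.36, adjusted p = 0.145). Crct1 (0.75), Gipc1 (1.17), an adaptor of PDZ-binding cargo, and Srp14 (0.81), a subunit of the signal recognition particle, completed the list, with adjusted p-values of 0.167, 0.182 and 0.183.

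Usp9x, Dync1h1 and Npc1 were among the 10 lower genes with the smallest p. Usp9x, a deubiquitinase, was at 43.9, 35.1 and 43.8 CPM against 86.3, 80.2 and 63.0 CPM (-0.88 ± 0.19, adjusted p = 0.102). Dync1h1, the heavy chain of cytoplasmic dynein, was at 250, 293 and 280 CPM against 559, 447 and 445 CPM (-0.81 ± 0.19, adjusted p = 0.145). Npc1, which exports cholesterol from lysosomes, was at 40.5, 38.3 and 44.1 CPM against 64.9, 68.6 and 67.9 CPM (-0.70 ± 0.16, adjusted p = 0.132). In all of them the treated libraries lay below PBS, and the values of replicate 2 were close to those of its group.

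Others of the 10 were Cdo1 and Ggcx. Cdo1, cysteine dioxygenase, was at 226, 239 and 213 CPM against 470, 317 and 321 CPM (-0.68 ± 0.16, adjusted p = 0.132). Ggcx, the vitamin K-dependent carboxylase that activates clotting factors, was at 12.5, 9.82 and 10.8 CPM against 22.0, 29.9 and 22.1 CPM (-1.09 ± 0.25, adjusted p = 0.132). For Lyst (-1.59), Mtss1 (-0.92) and Pkd1 (-1.26) replicate 2 was the lowest of the treated libraries, and without it the differences were -1.28, -0.64 and -0.81. Ppp3ca, the catalytic subunit of calcineurin, had a difference of -0.81.

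Alb was at 5356, 4712 and 5109 CPM against 5809, 5353 and 4384 CPM, with overlapping groups and a difference of -0.03 ± 0.14 that was 0.02 without replicate 2. Of 42 measured hepatocyte identity genes, 18 were higher and 24 lower, the median was -0.05 and 0 passed. All treated libraries were below PBS in 6 of the 42 and above in 2, beside 5.85% and 5.77% of all genes. Trf, transferrin, was lower in all treated libraries (-0.30 ± 0.10, adjusted p = 0.290). Apob was at 128, 41.2 and 121 CPM against 283, 270 and 102 CPM, low in both libraries that stood apart.

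Acute phase proteins, which the liver makes in inflammation, had 23 lower and 9 higher of 32 measured, a median of -0.13 and 0 that passed. All treated libraries were below PBS in 7 of them and above in 2, beside 5.85% and 5.77% of all genes. The 7 include the 3 chains of fibrinogen, which are named here after their values were seen along with Hp and C3. Fga was at 139, 172 and 164 CPM against 245, 243 and 224 CPM (-0.59 ± 0.16, adjusted p = 0.210), and Fgb and Fgg differed by -0.60 and -0.56. C4b, complement component 4, was at 152, 174 and 155 CPM against 200.4, 249.6 and 262 CPM (-0.55 ± 0.14, adjusted p = 0.182). Haptoglobin, Hp, differed by -0.53 and complement C3 by -0.40. In the other direction were Crp at 0.53 and Saa1 at 0.15, and the median of the list was -0.06 without replicate 2, -0.07 without PBS replicate 3 and -0.08 without both.

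Interferon and RNA sensor genes, a set of interest because double-stranded RNA can trigger innate sensors, gave 31 lower and 9 higher of 40 measured, with a median of -0.20 and 0 that passed. Oasl1 was at 23.8, 11.7 and 18.1 CPM against 30.4, 36.9 and 34.5 CPM (-0.94 ± 0.25, adjusted p = 0.186). All treated libraries were below PBS in 4 of the 40 and above in 1, beside 5.85% and 5.77% of all genes. The antiviral gene Ifit1 (-0.64) and Ddx58, which encodes the RNA sensor RIG-I (-0.71), were also below PBS in all treated libraries, and Zbp1 (0.87) was above. Ifit1, Ddx58 and Zbp1 are named after their values were seen. The median was -0.23 without replicate 2, -0.36 without PBS replicate 3 and -0.34 without both. Among NF-κB targets 10 of 18 were higher and 8 lower. Their median was 0.05, or -0.08 without replicate 2, -0.11 without PBS replicate 3 and -0.15 without both. All treated libraries were above PBS in 1 of the 18 and below in 3, beside 5.77% and 5.85% of all genes. The members of smallest p, Icam1 and Nfkb1, did not pass (adjusted p = 0.360 and 0.402). With 1 library left out their differences ran from -0.82 to -0.58 and from -1.15 to -0.71.

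**Figure D5:**
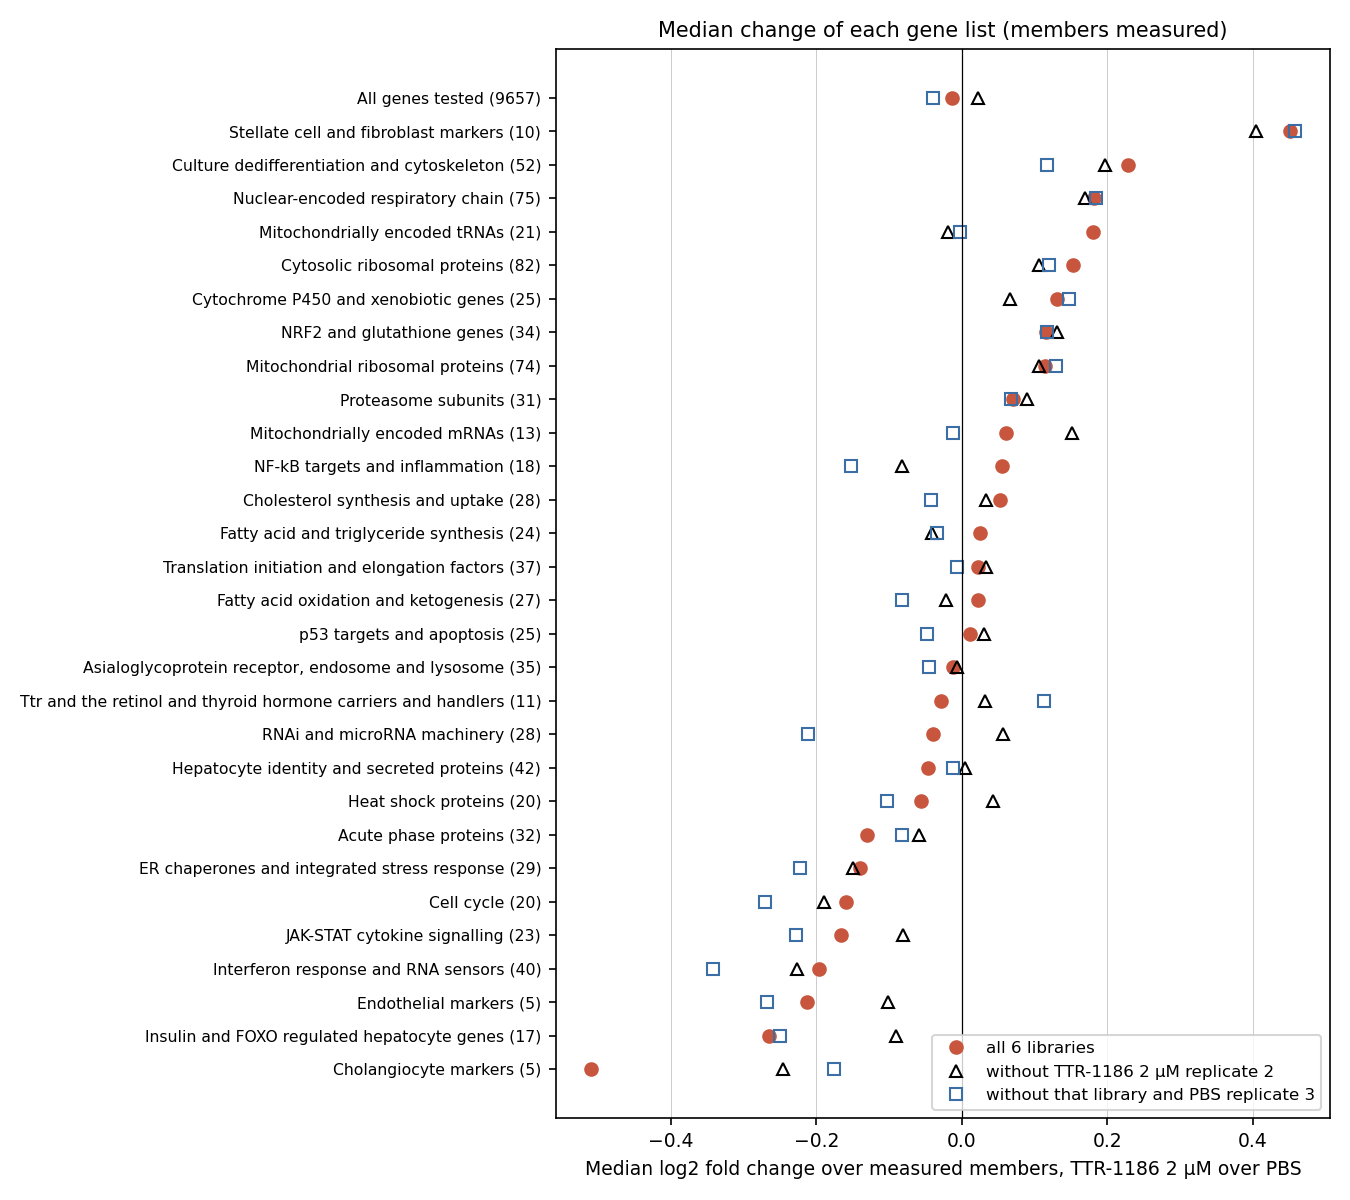
Median log2 fold change over the measured members of each list with at least 5 of them (y axis, number measured in brackets) for TTR-1186 2 µM over PBS (x axis), with all 6 libraries (red circles), without TTR-1186 2 µM replicate 2 (triangles) and without that library and PBS replicate 3 (squares). The respiratory chain stays between 0.17 and 0.18, and the mitochondrial tRNAs move from 0.18 to -0.02 without replicate 2.

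Genes of the respiratory chain and the ribosome were slightly higher as groups. Of 75 nuclear-encoded respiratory chain genes 70 were higher, with a median of 0.18 (0.17 without replicate 2, when 62 were higher). Over all 9657 genes 4679 were higher, and 5105 without replicate 2. In the respiratory chain 11 genes stood above PBS in all treated libraries, beside 5.77% of all genes. The respiratory chain median against PBS was 0.27 with Reference 4 and 0.28 with TTR-1236, both at 2 µM, and 0.01 with TTR-1186 at 0.2 µM. Ndufab1, the acyl carrier subunit of complex I, was at 80.5, 82.5 and 77.5 CPM against 56.2, 53.4 and 61.1 CPM (0.49 ± 0.16, adjusted p = 0.290). Of 82 cytosolic ribosomal protein genes 77 were higher (median 0.15, or 0.11 without replicate 2), such as Rpl6 at 1088, 839 and 1056 CPM against 732, 838 and 780 CPM (0.34 ± 0.13, adjusted p = 0.378). All treated libraries were above PBS in 11 of the 82, again beside 5.77%. None of either group passed. In replicate 2 the ribosomal protein genes had a median of 0.19 above its group's other libraries.

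The remaining lists had no member that passed. ER chaperone and integrated stress response genes were lower in 23 of 29, with a median of -0.14 that was -0.31 without PBS replicate 3 and -0.22 without both libraries that stood apart. Among them was Ddit3, the stress factor CHOP, at 183, 156 and 117 CPM against 226, 184 and 188 CPM (-0.40 ± 0.20, adjusted p = 0.536). Cell cycle genes were lower in 12 of 20 (median -0.16, or -0.27 without both). All treated libraries were below PBS in 5 of the 20 and above in 1, beside 5.85% and 5.77% of all genes. Among the 5 was the proliferation marker Mki67, at 3.14, 0 and 4.63 CPM against 13.9, 8.90 and 9.87 CPM. Replicate 2 had 0 Mki67 reads, and 3 reads would be 0.135 CPM in that library. NRF2 and glutathione genes were higher in 23 of 34 (median 0.12). Cholesterol synthesis genes gave 17 higher and 11 lower, with Fdps, farnesyl diphosphate synthase, at 0.45 ± 0.13 (adjusted p = 0.221) and Mvd at -0.67 ± 0.24 (adjusted p = 0.360).

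No gene of oligonucleotide uptake or of the RNAi machinery passed the test. Asgr1, the main subunit of the asialoglycoprotein receptor, was at 45.7, 87.8 and 48.1 CPM against 70.6, 78.6 and 59.3 CPM, with replicate 2 high and overlapping groups (-0.25 ± 0.28, adjusted p = 0.789). Ago2 was at 107, 87.2 and 109 CPM against 115, 123 and 148 CPM (-0.34 ± 0.21, adjusted p = 0.609), below PBS in all treated libraries. Eri1, an exonuclease that degrades small RNAs, was at 9.72, 5.29 and 9.86 CPM against 23.2, 17.4 and 11.9 CPM, also without overlap (-0.99 ± 0.38, adjusted p = 0.402). Eea1, a tether of early endosomes, was at 22.0, 14.8 and 28.3 CPM against 82.5, 69.3 and 21.5 CPM, with PBS replicate 3 among the treated values (-1.21 ± 0.41, adjusted p = 0.339). Without PBS replicate 3 its difference was -1.80 and passed (adjusted p = 0.0376). The 35 endosome and lysosome genes had a median of -0.01, or -0.04 without both libraries that stood apart. The 28 RNAi genes had one of -0.04, which was 0.06 without replicate 2, -0.23 without PBS replicate 3 and -0.21 without both.

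Markers of other cells were few or low. The summed level of the 5 of 18 endothelial markers measured was 102 to 113 CPM with TTR-1186 2 µM and 116 to 141 CPM in PBS, and that of the 3 of 26 Kupffer cell and leukocyte markers 115 to 144 CPM against 95.1 to 127 CPM. The 5 of 12 cholangiocyte markers summed to 64.3 to 80.4 CPM against 66.5 to 89.2 CPM. Of the defining markers, Stab2 of sinusoidal endothelium was at 3.51, 0.179 and 3.001 CPM against 10.1, 9.05 and 8.09 CPM (-1.86 ± 0.49, adjusted p = 0.186), nearly absent from replicate 2. Hepatocyte markers other than Alb, such as Apoa1 at a mean of 2166 CPM against 2331 CPM, were abundant in both groups, whereas the urea cycle enzyme Cps1 was at 9.03 against 12.8 CPM.

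The profile of TTR-1186 2 µM replicate 2 is a description, since the library was known to differ. It was at least 2-fold below the mean of replicates 1 and 3 for 1191 genes and at least 2-fold above for 220, and 109 genes had 0 reads there, against 1 and 0 in replicates 1 and 3. Those 109 genes had a median of 6.07 CPM and a highest value of 43.7 CPM in the mean of the other libraries of the group. Pcm1, a centriolar satellite protein, was at 18.5, 0 and 17.7 CPM, and Suz12, a subunit of Polycomb repressive complex 2, at 36.0, 1.35 and 41.8 CPM. The highest differences were smaller, such as Smpd2, a neutral sphingomyelinase, at 14.4, 47.3 and 14.0 CPM, and Mmd at 16.1, 61.0 and 22.0 CPM. In PBS replicate 3, 1181 genes were at least 2-fold below the mean of PBS replicates 1 and 2. Of all genes, 12.3% were that low in TTR-1186 2 µM replicate 2 and 12.2% in PBS replicate 3, and 418 were in both, 35.1% of the 1191 and 35.4% of the 1181. Suz12 stood at 10.9 CPM there against 70.2 and 41.7 CPM.

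A direct test against the same agent at 0.2 µM asked which genes depended on the dose. limma called 0 of 9657 genes (0%), with 1415 at an unadjusted p under 0.05. edgeR called 0 and DESeq2 106 (74 higher and 32 lower at 2 µM), and without TTR-1186 2 µM replicate 1 limma called 2. Igfbp1 was at 157 ± 39.2 CPM at 0.2 µM and 174 ± 29.5 CPM at 2 µM (SD, n = 3), a log2 difference of 0.17 with a 95% interval of -0.20 to 0.54. Jak1 was at 195 ± 5.18 CPM and 165 ± 8.07 CPM (interval -0.52 to 0.03). Against PBS, Igfbp1 fell by 1.32 with TTR-1186 at 0.2 µM in limma (adjusted p = 0.000588), in a comparison that shares the PBS libraries. The mitochondrial tRNA genes mt-Tn and mt-Tc were among the genes of smallest p, 0.96 and 0.99 higher at 2 µM (adjusted p = 0.137 each), with the phosphatase gene Dusp1 at 1.10 and Rpl22 at 0.72. These tests do not show that the doses act alike.

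A direct test against Reference 4 at 2 µM called 36 genes (0.373%), 22 higher and 14 lower with TTR-1186. Igfbp1 was lower with TTR-1186, at 174 ± 29.5 CPM against 369 ± 44.0 CPM (-1.09, 95% interval -1.45 to -0.72, adjusted p = 0.00613), while Reference 4 at 2 µM was near PBS. At 0.2 µM Igfbp1 was low with the other agents too. It was at 144 ± 9.59 CPM with Reference 4 and 193 ± 9.46 CPM with TTR-1236, beside a mean of 386 CPM in PBS. Cdo1 was also lower with TTR-1186 than with Reference 4 at 2 µM (-0.83, adjusted p = 0.0208). So was Mt1, the metal-binding metallothionein, at 4114 ± 119 CPM against 8162 ± 1660 CPM (-0.97, adjusted p = 0.00465). Fabp1, the liver fatty acid-binding protein, was lower at 7.44, 13.5 and 7.11 CPM against a mean of 43.3 ± 14.3 CPM (-2.09, adjusted p = 0.0208). Fdps was higher with TTR-1186, at 374 ± 20.5 CPM against 208 ± 11.6 CPM (0.84, adjusted p = 0.00465), and passed with any 1 library left out. Without Reference 4 replicate 1 the count was 2, without its replicate 3 it was 8 and without TTR-1186 2 µM replicate 3 it was 10. Without Reference 4 replicate 1 Igfbp1 and Mt1 had an adjusted p of 0.0665 each and Cdo1 and Fabp1 0.128 each. Cdo1 was also lost without Reference 4 replicate 3 (0.0962) or TTR-1186 2 µM replicate 3 (0.114), and Fabp1 without Reference 4 replicate 2 (0.0669) or TTR-1186 2 µM replicate 3 (0.117).

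Jak1 and Raver2 gave no such difference from Reference 4. Jak1 was at 137 ± 9.63 CPM with Reference 4 at 2 µM, and the log2 difference of 0.26 had an interval of -0.02 to 0.53. For Raver2 the interval was -0.44 to 0.48, and for Ttr -1.60 to 0.14. For Ypel2 it was -1.44 to -0.08 (adjusted p = 0.336). Against PBS, Reference 4 at 2 µM had its own fall of Jak1 by 1.06 (adjusted p = 0.000134), 1 of 217 genes called there (2.25%) in a comparison that shares the PBS libraries. Raver2 also fell in that comparison, by 0.998 (adjusted p = 0.0220).

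A direct test against TTR-1236 at 2 µM called 33 genes (0.342%), 24 higher and 9 lower with TTR-1186. Igfbp1 was again lower, against 349 ± 60.7 CPM with TTR-1236 (-0.997, interval -1.36 to -0.63, adjusted p = 0.0121). The tRNA gene mt-Ty was higher with TTR-1186, at 185 ± 43.8 CPM against 91.6 ± 22.1 CPM (1.00, interval 0.63 to 1.37, adjusted p = 0.0121), and so was mt-Tc (0.95, adjusted p = 0.0329). Without TTR-1186 2 µM replicate 2 the mt-Tc difference was 0.73 and did not pass (adjusted p = 0.0662). Actn1 was higher at 0.83 (adjusted p = 0.0189), and Ptma, which encodes the nuclear protein prothymosin α, at 1.10 (adjusted p = 0.0121). The count was 2 without TTR-1236 2 µM replicate 2, 1 without its replicate 3, 170 without its replicate 1, 181 without TTR-1186 2 µM replicate 2 and 8 without TTR-1186 2 µM replicate 3. Without TTR-1236 2 µM replicate 3 the adjusted p was 0.0738 for Igfbp1, 0.0755 for mt-Ty, 0.200 for mt-Tc, 0.175 for Actn1 and 0.0738 for Ptma. These 5 calls were also lost without TTR-1236 2 µM replicate 2 (adjusted p from 0.0589 to 0.0819), and all but that of Igfbp1 without TTR-1186 2 µM replicate 3 (0.0747 to 0.161). For Jak1 the interval of the difference was 0.05 to 0.60 (adjusted p = 0.236). With TTR-1236 at 2 µM against PBS, a comparison that shares the PBS libraries, limma called 611 of 9657 genes. Among them Jak1 fell by 1.12 (adjusted p = 7.00e-05) and Raver2 by 1.16 (adjusted p = 0.00644). All direct comparisons share the 3 TTR-1186 2 µM libraries, and the labels name no change of structure between the agents.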

How the data were processed

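Each library has 1 deposited file of CPM for the same 9657 genes, scaled by the authors to a sum of 1000000. Build mm10, cutadapt 1.15, HISAT2 2.1.0 and featureCounts stand in the submitters' processing notes. How these were set, the strand used and any removal of low genes: not given in the sources used here. All values (100%) were whole numbers of reads within 0.001 reads, which gave back totals of 14158740 to 37410773 reads. These cover genes in the files only. Of the identifiers, 9652 matched a GENCODE symbol.

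limma 3.58.1 (R 4.3.3) was fitted to log2(CPM + 1) with 7 group means over 21 libraries, a trended, robust prior and no covariate, with Benjamini-Hochberg adjustment at 0.05. The pseudocount of 1 understates changes of low genes. The step was tested on simulated data.

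The members and lists were chosen with earlier results of these data known. Named were Ttr, Rbp4, Alb, Asgr1 and Ago2, genes past the threshold, the 10 higher and 10 lower genes of smallest p with a mean of at least 10 CPM and groups that did not overlap (predicted genes and pseudogenes left out), 2 members per list of smallest p, the 8 highest and 8 lowest genes of replicate 2, and 5 genes per direct comparison. Some list members in the text are examples outside this rule, picked with their values known. Among these are Serpina7, Igfbp2, Jak2, Tyk2, Stat3, Vcl, Crp, Saa1 and mt-Nd1. Lists were described by counts and medians, with no test.

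Alternatives were TMM factors, a mean of 10 CPM or more, a pseudocount of 0.5 or 5, edgeR 4.0.16 and DESeq2 1.42.0 on recovered reads, only the libraries compared, a replicate block, a constant prior and each library left out. Leaving out TTR-1186 2 µM replicate 2 with PBS replicate 3 was chosen after seeing the data. The median over all genes was -0.01 on CPM as deposited and 0.00 with TMM factors.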

Additional observations from a re-analysis of the deposited data

Results flagged for a closer look

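At 2 µM, 21 differences between TTR-1186 and another agent passed limma's test of the difference itself among the genes named here, with log2 differences given as TTR-1186 less the other agent. Against Reference 4 these were Igfbp1 (-1.09), Cdo1 (-0.83), Fdps (0.84), Fabp1 (-2.09), Mt1 (-0.97), Ppp2r5b, a regulatory subunit of phosphatase 2A (1.25), Ptma (0.92), the predicted gene Gm43738 (0.90) and the processed pseudogene Hspa9-ps1 (3.07). Against TTR-1236 they were Igfbp1 (-0.997), Cdo1 (-0.84), Fdps (0.68), Mt1 (-0.83), mt-Ty (1.00), mt-Tc (0.95), Actn1 (0.83), Ppp2r5b (1.33), Ptma (1.10), and the pseudogenes Hspa9-ps1 (2.79), Tmed10-ps (2.63) and Gm9800 (2.58).

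Igfbp1, Cdo1, Fdps, Mt1, Ppp2r5b, Ptma and Hspa9-ps1 passed against both agents. The 2 tests share the TTR-1186 2 µM libraries. Of 6 fits leaving out 1 library, Fdps and Hspa9-ps1 passed against Reference 4 in 6 and Igfbp1 and Mt1 in 5. Ppp2r5b did in 4, Cdo1 in 3 and Ptma in 2. Against TTR-1236, Igfbp1 and Ppp2r5b passed in 4 of 6, and Cdo1, Fdps, Mt1, Ptma and Hspa9-ps1 in 3. With a constant prior none passed against TTR-1236, and of these genes only Hspa9-ps1 against Reference 4. Reads of a processed pseudogene may come from its parent gene, so the 3 pseudogene values are uncertain. Hspa9-ps1 was at 22.8, 9.06 and 35.2 CPM with TTR-1186 2 µM, at 1.55 ± 0.842 CPM with Reference 4 2 µM and at 2.13 ± 1.27 CPM with TTR-1236 2 µM (SD, n = 3).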

How the results depend on the processing

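Limma's standard errors had a median of 0.29. The 95% interval of 61.7% of genes lay wholly within 2-fold of no change, rising to 93.9% where the mean level was 100 CPM or more. Smaller changes of low genes were not detectable at this depth and spread. The 5 calls against PBS were 5 with either other pseudocount or the minimum mean and 6 with TMM factors, but 3 in edgeR with TMM factors, 30 in DESeq2, 1 on only the libraries compared (also without TTR-1186 2 µM replicate 2), 1 with a constant prior and 9 without the pair of libraries that stood apart. Leaving out 1 library gave 1 to 37 calls.

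Against TTR-1186 0.2 µM the 0 calls became 106 in DESeq2, and 0 to 2 with 1 library left out. Against Reference 4 2 µM the 36 calls became 127 in DESeq2, 2 with a constant prior, 463 on only the libraries compared without TTR-1186 2 µM replicate 2, and 2 to 48 with 1 library left out. Against TTR-1236 2 µM the 33 calls became 306 in DESeq2, 19 on only the libraries compared, 294 on those without TTR-1186 2 µM replicate 2, 0 with a constant prior (1473 at an unadjusted p under 0.05), and 1 to 181 with 1 library left out. The causes were not tested.

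Same-numbered libraries of TTR-1186 2 µM and PBS had correlations of their deviations of 0.08, -0.14 and -0.32. With TTR-1186 0.2 µM they were -0.04, 0.24 and 0.23. Deviations from a mean of 3 libraries sum to 0, and 1 library stood apart in TTR-1186 2 µM and in PBS. These values therefore cannot tell whether the numbers pair the libraries. With the replicate block 3 genes were called against PBS (Ypel2 and mt-Ty had an adjusted p of 0.0813 each), 0 against TTR-1186 0.2 µM, 34 against Reference 4 2 µM and 50 against TTR-1236 2 µM.

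Some values that did not pass changed sign. Without TTR-1186 2 µM replicate 2, in the fit of all groups and of only the libraries compared, Alb was 0.023, mt-Rnr2 0.12, mt-Rnr1 0.13 and Stab1 0.037. With 1 library left out, Alb ran from -0.14 to 0.061, with 0.0016 without PBS replicate 2. mt-Rnr2 ran from -1.08 to 0.12, mt-Rnr1 from -1.16 to 0.13, with 0.08 without PBS replicate 1, and Stab1 from -0.999 to 0.037. Cd14 ran from -0.091 without PBS replicate 3, with -0.082 without TTR-1186 2 µM replicate 3, to 0.39. Cd68 was 0.061 to 0.40. Without the pair that stood apart Stab1 was 0.14, Cd68 -0.056 and Cd14 -0.039.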
